A study of Homo sapiens with 6 samples.

Results

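The tissue inhibitors of metalloproteinases, TIMP1, TIMP2, TIMP3 and TIMP4, and the membrane-anchored inhibitor RECK are 5 of the 28181 genes listed in the RNA-seq files, and all 5 passed the filter on low values that left 23040 genes. They were taken by gene symbol, and they were chosen from measured values of this same comparison known earlier, so the values of the members and the ratios between them are given as a description without a p-value. The samples were 3 libraries of UE7T-9 Cont and 3 libraries of UE7T-9 SHC4, named Cont and SHC4 libraries in what follows. UE7T-9 is a human bone marrow-derived mesenchymal stem cell line immortalized with telomerase reverse transcriptase and the human papillomavirus E7 gene, which all 6 libraries share. UE7T-9 SHC4 carried a lentiviral vector with the coding region of the adaptor gene SHC4 under a CMV promoter. UE7T-9 Cont carried the same vector with green fluorescent protein according to the study's methods, whereas its labels read Nontarget and wild type. The sample titles call the 3 libraries of a group biological replicates and the deposited description speaks of clones, while no source used here says whether they came from separate infections, clones or cultures, so that the errors measure the spread between these libraries. The study asked which expression changes accompany SHC4 overexpression in cells that are to enter decellularized bone.

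TIMPs are small secreted proteins that block the active site of matrix metalloproteinases, and each also binds partners of its own. TIMP1 associates with CD63 at the cell surface. TIMP2 blocks MMP2 and also joins MMP14 in the complex that activates the MMP2 precursor. TIMP3 stays bound to the extracellular matrix and has the broadest range of targets, including ADAM and ADAMTS proteases such as ADAM17. TIMP4 is the family member with the most restricted tissue expression. RECK is not a TIMP. It is anchored to the membrane by a lipid tail, restrains MMPs such as MMP14 and MMP2, and acts with ADGRA2 as a coreceptor for WNT7 ligands. Bone marrow stromal cells secrete both matrix metalloproteinases and their inhibitors, and the balance between them sets how matrix is removed around the cells.

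TIMP3 showed the largest difference of the 5 genes, and the 250 bases before its RefSeq start are shown for that reason. They lie at chr22:32801455-32801704 on the plus strand (GRCh38.p14), with the letters that matched a motif in capitals, 5′ to 3′.

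TIMP3: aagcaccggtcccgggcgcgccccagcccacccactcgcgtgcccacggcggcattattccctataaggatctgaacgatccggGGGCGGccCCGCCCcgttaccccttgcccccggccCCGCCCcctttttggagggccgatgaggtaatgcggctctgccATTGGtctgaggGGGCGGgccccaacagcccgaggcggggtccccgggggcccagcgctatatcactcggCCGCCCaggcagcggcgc

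The capitals mark 5 matches to the GC box GGGCGG and 1 match to the CCAAT box CCAAT, each counted on both strands. The same window held no match to TATAAA, to the AP-1 motif TGANTCA or to the STAT motif TTCNNNGAA. The TIMP3 window had a GC content of 72.4% and 26 CpG dinucleotides, against a median of 58.0% and 11 over 27305 RefSeq windows of the same length. The windows before TIMP1, TIMP4 and RECK had a GC content of 64.8%, 62.8% and 63.6%, and held 2, 1 and 3 GC box matches. They lie in part or wholly inside exons that GENCODE release 29 gives these genes (123, 250 and 250 of 250 bases). The TIMP3 window shares 4 bases with its own exons, and the other 3 windows are not printed. A CCAAT match was present before TIMP4 and was not found before TIMP1 or RECK, and none of these 3 windows held a TATA, AP-1 or STAT match. At least 1 GC box match was found in 42.3% of all windows, a CCAAT match in 33.0%, a TATA match in 11.1%, an AP-1 match in 6.6% and a STAT match in 6.78%. The table of promoters held 4 of the 5 members, and TIMP2 was not analysed here. A match to these letters is a description of the sequence and does not show that a factor binds.

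The libraries held between 18144993 and 27721397 reads assigned to genes. SHC4 itself ranged from 56.5 to 157 normalized counts in the Cont libraries and from 119166 to 155006 in the SHC4 libraries, a 1193-fold difference of the means, as the labels state. Cont library 1 stood apart, as its log2 values correlated more closely with every SHC4 library than with libraries 2 and 3 of its own group. The r was 0.9745, 0.9692 and 0.9684 with SHC4 libraries 1, 2 and 3, and 0.9668 and 0.9622 with Cont libraries 2 and 3. Results that rest on Cont library 1 are given with and without it. SHC4 library 1 correlated less with SHC4 libraries 2 and 3 (r = 0.9783 and 0.9751) than these did with each other (r = 0.9802). The collagen gene COL1A1 had 315042 normalized counts in Cont library 1 and 276719 in SHC4 library 1, and between 67813 and 130035 in the others. The 7 mesenchymal markers (NT5E, THY1, ENG, VCAM1, PDGFRB, COL1A1 and COL1A2) were present in every library, and their summed normalized counts ranged from 172315 to 586625 in the Cont libraries, highest in library 1, and from 338923 to 523657 in the SHC4 libraries, highest in library 1. These sums are carried by COL1A1 and COL1A2. Of the 7 mesenchymal markers, 6 had a log2 fold change above 0, with a median of 0.61, against 49.7% and -0.004 over all tested genes. NT5E was the 1 below 0 (-0.36), with means of 18701 ± 4935 and 14252 ± 2003 (SD, n = 3 each). Of the 7, only 1 was higher without overlap, which was so for 9.13% of all tested genes. PDGFRB, a receptor of mesenchymal cells, had 4122, 1487 and 1678 normalized counts in the Cont libraries and 6634, 5281 and 5178 in the SHC4 libraries, without overlap, and was called higher by DESeq2 (adjusted p = 0.0171) and not by limma (adjusted p = 0.162). The 6 blood and endothelial markers in the files summed to between 206.6 and 393.8 in the Cont libraries and between 268.9 and 340.4 in the SHC4 libraries. Among them, the leukocyte antigen PTPRC was at or below 6.82 and the endothelial cadherin CDH5 at or below 1.18 in every library, each at 0 in at least 1 library, and the endothelial adhesion gene PECAM1 was between 7.80 and 12.8 in the Cont libraries and at 9.67, 36.6 and 38.4 in SHC4 libraries 1, 2 and 3. The part of these markers in the values below was not tested. In bulk RNA, fewer cells that express a gene and less RNA per cell cannot be told apart.

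Values are normalized counts, that is, reads per gene divided by 1 size factor per library. Log2 fold changes are SHC4 minus Cont libraries on the log2(normalized count + 1) scale, with the standard error (SE) from limma. TIMP3 (ENSG00000100234) was the member with the clearest separation. Its normalized counts were 873.4, 719.3 and 673.8 in Cont libraries 1, 2 and 3, and 1667, 2155 and 1985 in SHC4 libraries 1, 2 and 3. The groups did not overlap, and the lowest SHC4 library was 1.91 times the highest Cont library. The means were 755.5 ± 104.6 and 1936 ± 247.7 (SD, n = 3 each), a 2.56-fold difference and a log2 fold change of 1.36 (SE 0.15). A lower log2 fold change was found in 97.5% of the tested genes.

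RECK (ENSG00000122707) was the other member whose groups did not overlap. It had 1404, 1169 and 1001 normalized counts in Cont libraries 1, 2 and 3, and 1605, 1841 and 1712 in the SHC4 libraries. The gap was narrow, as SHC4 library 1 exceeded Cont library 1 by 1.14 times. The means were 1191 ± 202.1 and 1719 ± 118.4 (SD, n = 3 each), a 1.44-fold difference and a log2 fold change of 0.54 (SE 0.15). The SHC4 libraries were the more uniform, with a coefficient of variation of 6.89% against 17.0% in the Cont libraries.

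TIMP2 (ENSG00000035862), the most abundant of the inhibitors per length of transcript, had the widest spread, with a coefficient of variation of 24.9% in the Cont libraries and 26.2% in the SHC4 libraries. Its normalized counts were 45025, 35954 and 27065 in the Cont libraries, and 44360, 76273 and 66343 in the SHC4 libraries. The groups overlapped only through the libraries numbered 1, since SHC4 library 1 lay just under Cont library 1, while the other two SHC4 libraries lay above every control. The means of 36015 ± 8980 and 62326 ± 16331 (SD, n = 3 each) differed 1.73-fold, with a log2 fold change of 0.79 (SE 0.30). Without Cont library 1 the groups no longer overlapped and the log2 fold change was 0.96.

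TIMP1 (ENSG00000102265) differed less. Its normalized counts were 9863, 8633 and 6408 in the Cont libraries, and 8656, 11070 and 11393 in the SHC4 libraries. Cont library 1 lay above SHC4 library 1, and the groups overlapped. The means were 8301 ± 1751 and 10373 ± 1496 (SD, n = 3 each), 1.25-fold apart, with a log2 fold change of 0.33 (SE 0.20). Without Cont library 1 the log2 fold change was 0.47, and the highest remaining control, at 8633, lay just under the lowest SHC4 library, at 8656.

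TIMP4 (ENSG00000157150) had the lowest counts of the 5 members. Its normalized counts were 33.1, 43.6 and 42.3 in the Cont libraries, and 34.3, 48.3 and 58.2 in the SHC4 libraries. These values rested on 34 to 58 reads per library. The groups overlapped, and the means of 39.7 ± 5.69 and 46.9 ± 12.0 (SD, n = 3 each) gave a log2 fold change of 0.21 with an SE of 0.31, larger than the difference itself. No difference in TIMP4 was detectable at this depth.

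**Figure D1:**
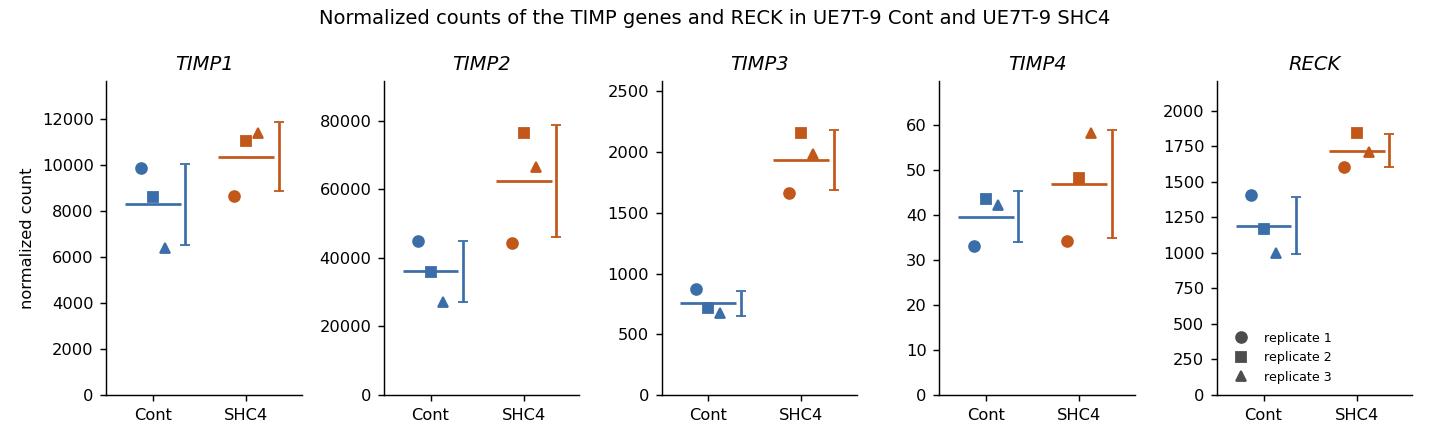
Normalized counts (y axis from 0, own scale per gene) of TIMP1, TIMP2, TIMP3, TIMP4 and RECK in the 3 libraries of the Cont group (blue) and of the SHC4 group (orange); the marker shape is the replicate number, the line the mean and the bar beside it the SD. The groups do not overlap for TIMP3 and RECK, and in TIMP1, TIMP2, TIMP3 and RECK the control closest to the SHC4 libraries is library 1.

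All 5 members had a mean log2 fold change above 0, with a median of 0.54. Over all 23040 tested genes the median was -0.004 and 49.7% lay above 0. For 2 of the 5 members every SHC4 library lay above every Cont library, which was so for 9.13% of all tested genes, and for none of them was the order the opposite, which was so for 10.2%. TIMP3 was the only member called higher by limma, at an absolute log2 fold change over 1 with an adjusted p under 0.05, a call given to 12 genes or 0.0521% of those tested, and no member was among the 2 genes or 0.00868% called lower. With DESeq2 on the recovered reads, TIMP3 was again the only member called higher, against 170 genes or 1.05% of the 16153 with an adjusted p, and none was called lower, against 185 genes or 1.15%. Since the members were chosen by values of this contrast, these counts are a description. TIMP3 was called in all 9 fits that used every library. Among the 6 fits that left out 1 library it was called without Cont library 1 and without SHC4 library 1 (log2 fold change up to 1.47), and was not called without Cont library 2 (1.33), Cont library 3 (1.28), SHC4 library 2 (1.28) or SHC4 library 3 (1.33). No other member was called in any of the 15 fits. A limma fit blocked on replicate number gave 25 genes higher, TIMP3 among them, and 14 lower. The log2 fold changes with 1 library left out ranged from 0.42 to 0.67 for RECK, from 0.60 to 1.01 for TIMP2, from 0.16 to 0.47 for TIMP1 and from 0.05 to 0.42 for TIMP4.

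**Figure D2:**
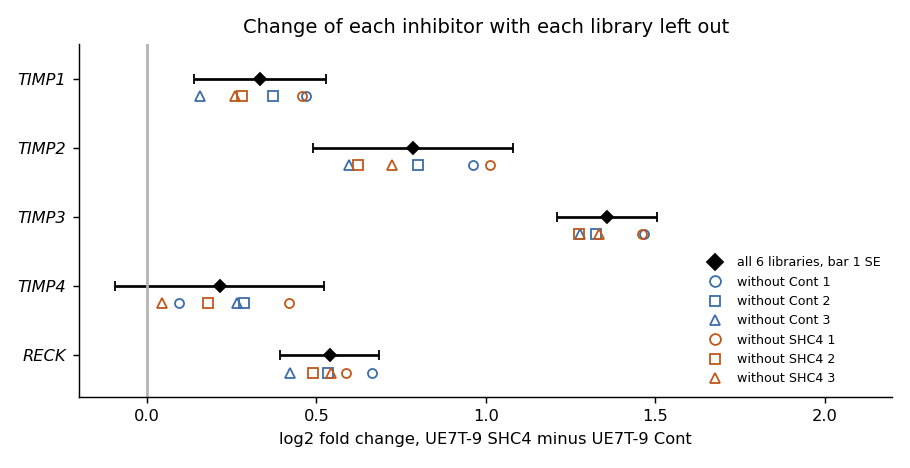
Log2 fold change of each member, SHC4 minus Cont libraries (x axis), from all 6 libraries (black diamond, bar 1 SE) and with 1 library left out (open markers, blue for a control and orange for an SHC4 library left out). TIMP3 stays between 1.28 and 1.47, away from the other members, while TIMP4 comes down to 0.05.

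Levels of different genes were compared as normalized counts per kb of exon, with all annotated exons of a gene joined. TIMP2 was the highest with 6394 ± 1594 per kb in the Cont libraries and 11064 ± 2899 in the SHC4 libraries (SD, n = 3 each). TIMP1 followed with 5387 ± 1136 and 6731 ± 970.7 per kb. The ranges of these neighbours overlapped across libraries, although within every library TIMP2 was above TIMP1. RECK and TIMP3 formed a lower pair, and their order differed between the groups. RECK had 197.1 ± 33.4 per kb in the Cont libraries against 164.1 ± 22.7 for TIMP3, while TIMP3 had 420.6 ± 53.8 per kb in the SHC4 libraries against 284.4 ± 19.6 for RECK. Thus RECK was above TIMP3 within every Cont library and below it within every SHC4 library, although over the libraries of the Cont group the ranges of the pair overlapped. With the length of the longest transcript instead of the joined exons, RECK had 243.7 and 351.7 per kb, and the order of the means was the same. TIMP4 was the lowest, with 24.0 ± 3.45 and 28.4 ± 7.29 per kb, and did not overlap any other member.

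**Figure D3:**
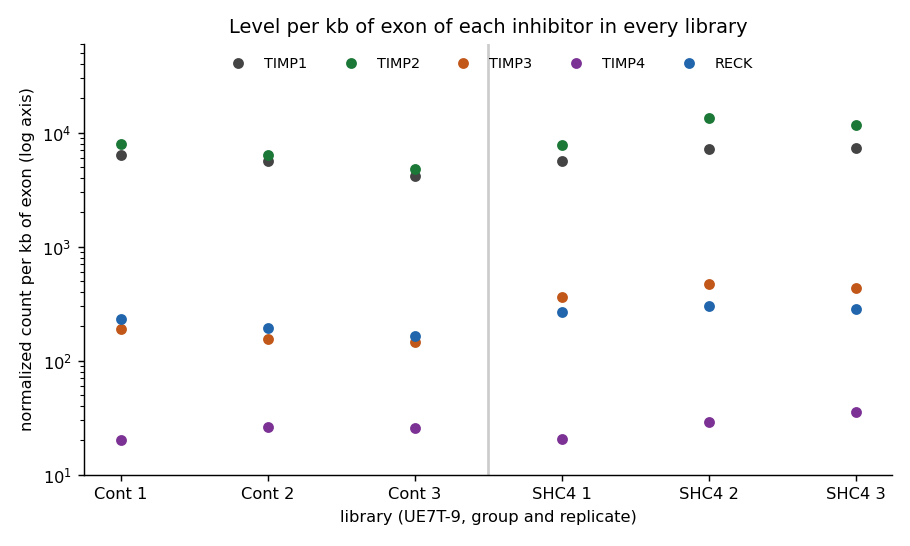
Normalized counts per kb of exon (y axis, log scale) of the 5 members in each of the 6 UE7T-9 libraries (x axis), 1 point per gene and library. TIMP2 and TIMP1 lie at 4158 per kb or more in every library, TIMP4 at 35.3 or less, and TIMP3 lies under RECK in the 3 control libraries and over it in the 3 SHC4 libraries.

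In percent of the summed level per kb of the 4 TIMP genes, TIMP1 accounted for 45.1 ± 1.16% in the Cont libraries and 37.3 ± 3.33% in the SHC4 libraries. TIMP2 accounted for 53.3 ± 1.28% and 60.2 ± 3.53%. TIMP3 made up 1.40 ± 0.18% and 2.34 ± 0.24%, and TIMP4 made up 0.212 ± 0.072% and 0.156 ± 0.022% (SD, n = 3 each). The groups did not overlap for the shares of TIMP1, TIMP2 and TIMP3, and no background over all genes was computed for shares. TIMP1 and TIMP2 made up nearly all of the sum, so their shares are near complements. The lower TIMP1 share and the higher TIMP2 share are thus 1 difference, that of their ratio below. The TIMP1 level itself was not lower, with means of 5387 per kb in the Cont libraries and 6731 in the SHC4 libraries, with overlap. The share of TIMP2 was highest in SHC4 library 2 at 63.8%, whereas library 1, the lowest of that group, had 56.8% against 54.7% in the highest control.

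Ratios within a library do not depend on how the libraries were scaled. The TIMP2 to TIMP1 ratio was 1.25, 1.14 and 1.16 in Cont libraries 1, 2 and 3, and 1.40, 1.88 and 1.59 in the SHC4 libraries, a 1.37-fold difference without overlap. The TIMP3 to TIMP1 ratio was 0.0296, 0.0279 and 0.0352 in the Cont libraries, and 0.0645, 0.0652 and 0.0583 in the SHC4 libraries, a 2.03-fold difference without overlap. Relative to TIMP1, both genes were thus higher in every SHC4 library than in every Cont library, which was so for 3.09% of the 23039 other tested genes, while 12.0% lay lower without overlap. The TIMP3 to TIMP2 ratio was 0.0237, 0.0245 and 0.0305 in the Cont libraries, and 0.0460, 0.0346 and 0.0366 in the SHC4 libraries, 1.49-fold apart. A ratio to TIMP2 higher without overlap was found for 1.06% of the other genes, and a lower one for 31.0%.

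RECK was compared with each TIMP in the same way. The RECK to TIMP3 ratio was 1.22, 1.24 and 1.13 in the Cont libraries, and 0.733, 0.651 and 0.657 in the SHC4 libraries, 0.567-fold and without overlap. This was shared by most genes, as 67.8% of the other tested genes were lower relative to TIMP3 without overlap. The RECK to TIMP1 ratio overlapped between the groups, with means of 0.0369 ± 0.0027 and 0.0427 ± 0.0045 (SD, n = 3 each). The RECK to TIMP2 ratio overlapped as well, with means of 0.0313 ± 0.0028 and 0.0267 ± 0.0061. The TIMP4 to TIMP3 ratio was 0.150 ± 0.038 in the Cont libraries and 0.0672 ± 0.0129 in the SHC4 libraries without overlap, while the ratios of TIMP4 to TIMP1, TIMP2 and RECK overlapped.

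**Figure D4:**
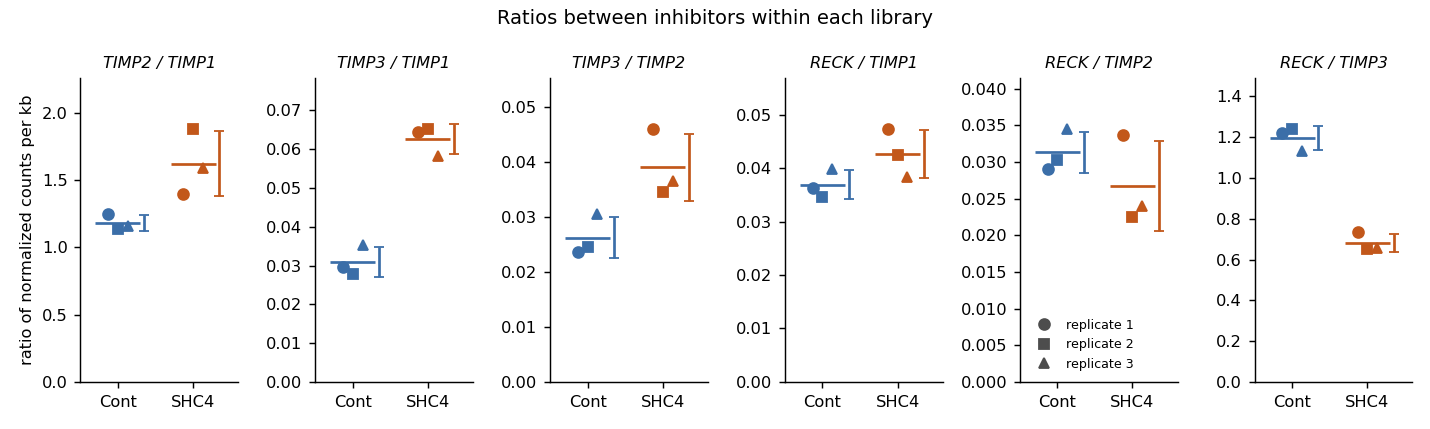
Ratios between inhibitors within each library, from normalized counts per kb of exon (y axes from 0), for the Cont group (blue) and the SHC4 group (orange); the marker shape is the replicate number, the line the mean and the bar the SD. The RECK to TIMP3 ratio lies above 1 in the 3 control libraries and at 0.733 or less in the 3 SHC4 libraries, while RECK to TIMP1 and RECK to TIMP2 overlap.

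Each inhibitor except TIMP4 was also set against a protease it is known to act on. MMP2 and TIMP2 were both abundant, and the MMP2 to TIMP2 ratio overlapped between the groups, with 1.30, 1.35 and 1.51 in the Cont libraries and 1.04, 2.16 and 1.65 in the SHC4 libraries. The MMP14 to TIMP2 ratio was 1.54, 2.26 and 1.54 in the Cont libraries, and 1.13, 1.02 and 1.32 in the SHC4 libraries, 0.657-fold and without overlap. The MMP14 to RECK ratio overlapped, with means of 57.3 ± 15.4 and 44.5 ± 10.8 (SD, n = 3 each). The ADAM17 to TIMP3 ratio was 0.515, 0.882 and 0.911 in the Cont libraries, and 0.269, 0.219 and 0.270 in the SHC4 libraries, 0.337-fold and without overlap. The MMP1 to TIMP1 ratio was 0.0992, 0.447 and 0.159 in the Cont libraries, and 0.0785, 0.0364 and 0.0592 in the SHC4 libraries, 0.288-fold and without overlap (log2 difference -1.80). Cont library 2 held the highest of these ratios, and the log2 difference without it was -1.19. The shares of all genes lower relative to TIMP1, TIMP2 and TIMP3 given above, 12.0%, 31.0% and 67.8%, are the background of these counts. These are ratios of RNA, and protein was not measured here.

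Lists of the proteases the inhibitors act on, of their binding partners, of other inhibitors and of proteins sharing their netrin-like domain held 91 genes with the genes that hold or overlap a TIMP gene, of which 84 were in the files and 81 were tested. In limma, none of the 81 was called higher or lower by the same thresholds. Over all genes that test called 12 higher and 2 lower, and 3323 had a p under 0.05 before adjustment. Of the 81, DESeq2 called 6 and edgeR none. The 4 called higher by DESeq2 were MMP11, MMP17, ADAM33 and ADGRA2, and the 2 called lower were MMP3 and ADAMTS16. Of all 16153 genes with an adjusted p in DESeq2, 170 or 1.05% were called higher and 185 or 1.15% lower. Without Cont library 1, limma called 15 of the tested partners, 13 higher and 2 lower, so that the count rested on that library. In the same fit 1.59% of all 23087 genes tested were called higher and 1.47% lower. The 15 were the 6 named above with A2M, ADAMTS4, ADAMTS10, ADAMTS15, EFEMP1, FZD4, PCOLCE, SFRP4 and SPOCK1, all 9 of them higher.

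Of the secreted MMPs, 12 were in the files and 11 tested, and the median log2 fold change was 0.09, with 2 higher and 2 lower without overlap. Over all tested genes 9.13% were higher and 10.2% lower without overlap, the background of these counts in this and the later lists. MMP2, gelatinase A, was the most abundant per kb, with 51279, 42374 and 35709 normalized counts in the Cont libraries and 40235, 144602 and 96040 in the SHC4 libraries. SHC4 library 1 lay within the controls and SHC4 libraries 2 and 3 above them (log2 fold change 0.95, SE 0.44, limma adjusted p = 0.362). DESeq2 gave MMP2 a log2 fold change of 1.12 and an adjusted p of 0.0528, just over the threshold. MMP1, interstitial collagenase, had 1251, 4939 and 1304 normalized counts in the Cont libraries and 868.3, 514.4 and 861.7 in the SHC4 libraries, without overlap (log2 fold change -1.46, SE 0.47, limma adjusted p = 0.224). MMP19 had means of 406.5 ± 51.5 and 485.7 ± 10.8 (SD, n = 3 each) without overlap (limma adjusted p = 0.432). MMP11, stromelysin-3, had 194.0, 124.8 and 123.9 normalized counts in the Cont libraries and 373.5, 715.8 and 577.6 in the SHC4 libraries. Its log2 fold change was 1.89 (SE 0.27), and it just missed the threshold in limma (adjusted p = 0.0549) and was called in DESeq2 (adjusted p = 1.37e-07). MMP3, stromelysin-1, overlapped, with 2.92, 117.7 and 66.9 normalized counts in the Cont libraries and 8.79, 3.33 and 9.32 in the SHC4 libraries, and was called lower by DESeq2 (adjusted p = 0.0214) and not by limma (adjusted p = 0.433). MMP12, macrophage elastase, was at 0 in every SHC4 library and between 1.95 and 4.92 in the Cont libraries, at about the floor of 3 reads.

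All 6 membrane-type MMPs were tested, and the median log2 fold change was 0.63. Among them 3 were higher and 1 lower without overlap, against 9.13% and 10.2% of all tested genes. MMP14, which activates the MMP2 precursor, had 54914, 64326 and 32950 normalized counts in the Cont libraries and 39642, 61465 and 69423 in the SHC4 libraries. The groups overlapped (log2 fold change 0.18, SE 0.33, limma adjusted p = 0.846). MMP15 had a log2 fold change of 0.43 and MMP16 of -0.46, both without overlap and neither called (limma adjusted p = 0.452 and 0.271). MMP17, an MMP held at the membrane by a lipid anchor, had 55.6, 53.0 and 23.6 normalized counts in the Cont libraries and 79.1, 172.3 and 110.6 in the SHC4 libraries. Its log2 fold change was 1.46 (SE 0.40), with an adjusted p of 0.187 in limma and 0.0212 in DESeq2.

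All 9 ADAM proteases listed were tested, 2 with a log2 fold change above 0 and 7 below, with a median of -0.16. ADAM9, the most abundant per kb, had means of 15138 ± 1534 and 11799 ± 995.9 (SD, n = 3 each) without overlap (log2 fold change -0.36, limma adjusted p = 0.352). ADAM10, a sheddase of cell-surface proteins, and ADAM15 overlapped, with log2 fold changes of 0.11 and -0.10. ADAM17, a sheddase that TIMP3 blocks, overlapped too, with means of 1322 ± 236.6 and 1133 ± 106.0 normalized counts. ADAM33 had 51.7, 16.5 and 12.8 normalized counts in the Cont libraries and 163.5, 202.3 and 151.4 in the SHC4 libraries, without overlap. Its log2 fold change was 2.88 (SE 0.46), with an adjusted p of 0.0771 in limma and 3.32e-06 in DESeq2.

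Of the 19 ADAMTS proteases in the files, 18 were tested, 8 with a log2 fold change above 0 and 10 below (median -0.09). Among them 2 were higher and 1 lower without overlap, against 9.13% and 10.2% of all tested genes. ADAMTS1, ADAMTS2, the procollagen N-proteinase, and ADAMTS7 were the most abundant per kb, and each overlapped (log2 fold changes -0.51, 0.08 and 0.44). ADAMTS4, an aggrecanase, had 154.0, 114.2 and 82.6 normalized counts in the Cont libraries and 193.3, 224.7 and 279.5 in the SHC4 libraries (limma adjusted p = 0.170). DESeq2 gave ADAMTS4 an adjusted p of 0.0235, and it was not called there because its log2 fold change of 0.99 was under 1. ADAMTS10 had 40.0, 0 and 12.8 normalized counts in the Cont libraries and 129.2, 88.2 and 79.2 in the SHC4 libraries (limma adjusted p = 0.212). ADAMTS16 had 7.80, 27.1 and 76.7 normalized counts in the Cont libraries, and 0, 0.832 and 0 in the SHC4 libraries, where the middle value is 1 read. It was called lower by DESeq2 (adjusted p = 4.17e-04) and not by limma (adjusted p = 0.0961), and no fold is given against so few reads.

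Of the cell-surface partners, 9 of 11 were in the files and tested, 6 with a log2 fold change above 0 and 3 below (median 0.17). Among them 2 were higher and 2 lower without overlap, against 9.13% and 10.2% of all tested genes. ADGRA2, which binds RECK in the WNT7 coreceptor, had 3830, 2551 and 1508 normalized counts in the Cont libraries and 4588, 7256 and 6159 in the SHC4 libraries, without overlap. Its log2 fold change was 1.27 (SE 0.31), with an adjusted p of 0.163 in limma and 0.00879 in DESeq2. CD63, the tetraspanin that binds TIMP1, had means of 30394 ± 4473 and 33535 ± 3391 normalized counts, and integrin beta 1 (ITGB1), a TIMP2 partner, had 30366 ± 3067 and 34056 ± 1861 (SD, n = 3 each), both with overlap. FZD4, the WNT receptor of the RECK and ADGRA2 complex, had 1328, 1109 and 487.9 normalized counts in the Cont libraries and 1873, 1548 and 1893 in the SHC4 libraries, without overlap (limma adjusted p = 0.226). The 2 lower without overlap were ITGA3, the integrin chain that pairs with ITGB1, with means of 21079 ± 3136 and 15538 ± 1095 (log2 fold change -0.43, limma adjusted p = 0.320), and KDR, the VEGF receptor that TIMP3 binds, with 67.5 ± 11.2 and 40.0 ± 11.5 (SD, n = 3 each; log2 fold change -0.77, limma adjusted p = 0.303). EFEMP1, a fibulin that binds TIMP3, ranged from 1735 to 13819 in the Cont libraries, highest in library 1, and from 8564 to 13594 in the SHC4 libraries.

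Among the other inhibitors of matrix proteases 13 of 14 were tested, none without overlap, and the median log2 fold change was 0.07. SERPINE2 and the proteoglycan SPOCK1 had log2 fold changes of 0.07 and 1.09 with overlap. Of 12 tested genes that encode a netrin-like domain, the fold that also carries the inhibitory edge of a TIMP, 9 had a log2 fold change above 0 and 3 below, with a median of 0.38 and none without overlap. The most abundant per kb were PCOLCE, which enhances procollagen cleavage, NTN4, a netrin, and the WNT antagonist SFRP1, with log2 fold changes of 1.04, 0.002 and 0.73. SFRP4 had 428.9, 194.2 and 137.7 normalized counts in the Cont libraries and 340.1, 1577 and 914.1 in the SHC4 libraries, and A2M, a broad protease trap among the other inhibitors, had 786.7, 375.5 and 51.1 against 725.1, 1482 and 1541. In both, SHC4 library 1 lay under Cont library 1.

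**Figure D5:**
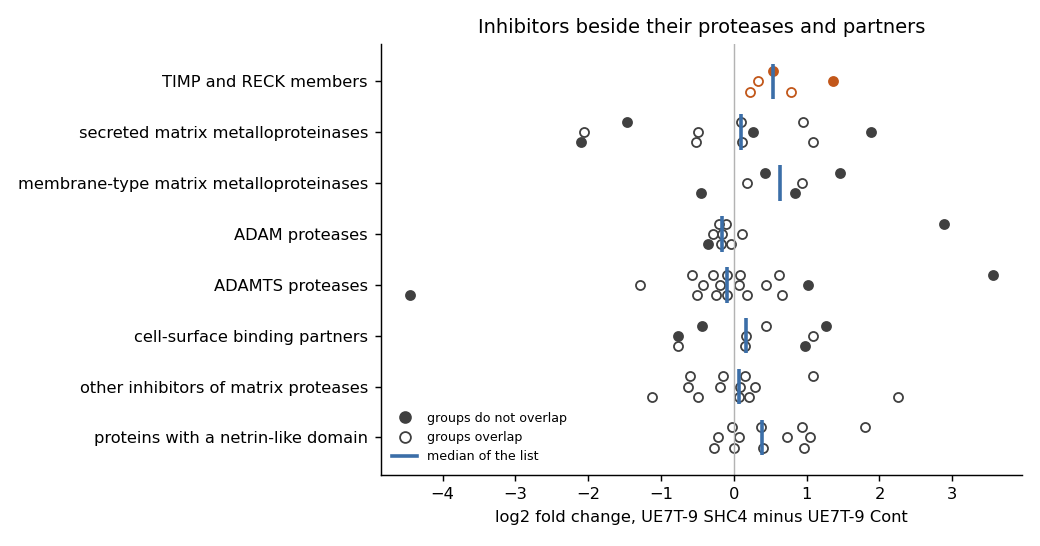
Log2 fold change, SHC4 minus Cont libraries (x axis), of every tested gene in the lists of inhibitors, proteases and partners (rows), with filled points where the groups did not overlap, open points where they did, and a blue line at the median of the list. The 5 members (orange) all lie above 0 with a median of 0.54, whereas the ADAM and ADAMTS proteases have medians of -0.16 and -0.09.

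The genes most like each member over the 6 libraries were taken among 12678 genes with a mean of at least 50 normalized counts. Pearson's r of log2(normalized count + 1) is given as a description, as the 6 points share their libraries and their group. TIMP3 was closest to CALCOCO1 (r = 0.9986), PCIF1 and DSC2, which had 32.0 normalized counts in the Cont libraries and 76.5 in the SHC4 libraries. RECK was closest to GSN (r = 0.9989), NBL1 and ATP2B4, and GSN had mean values of 7320 and 12354. TIMP2 was closest to OLFML2A (r = 0.9987), HTRA1 (r = 0.9986) and CCDC92, and HTRA1, a secreted serine protease, had mean values of 10990 and 21254. TIMP1 was closest to DDIT4L (r = 0.9995), TCF4 and BORCS5. TIMP4 was closest to COL4A3BP (r = 0.9927), RNF170 and CPE. Between the members, r was 0.951 for TIMP2 and RECK, 0.949 for TIMP3 and RECK, 0.939 for TIMP1 and TIMP2, and between 0.263 and 0.468 for TIMP4 with each of the others.

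In GENCODE release 29 (GRCh38), TIMP3 lies at chr22:32801701-32863043 inside SYN3, TIMP1 at chrX:47582313-47586789 inside SYN1, and TIMP4 at chr3:12153051-12159351 inside SYN2, each on the strand opposite to the synapsin gene that holds it. TIMP1 and TIMP3 share no exon base with their synapsin gene, while TIMP4 shares 170 bases, 10.3% of its exons, with SYN2. The synapsin genes were low, with SYN1 between 1.16 and 6.82, SYN2 between 0 and 6.66 and SYN3 between 0 and 1.16 normalized counts. TIMP2 lies at chr17:78852977-78925387 on the minus strand and holds CEP295NL on the same strand, which shares 198 bases or 3.52% of the TIMP2 exons and had between 5.27 and 15.8 normalized counts. An antisense gene, AC022966.1, covers 367 bases or 6.52% of the TIMP2 exons and was not analysed here. RECK lies at chr9:36036433-36124451 on the plus strand and shares no exon base with another annotated gene. The strand setting of the counting is not given in the sources used here and the kit does not mark strand, so reads of TIMP4 and SYN2, or of TIMP2 and its antisense gene, cannot be told apart where their exons meet.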

How the data were processed

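RNA from 3 UE7T-9 Cont and 3 UE7T-9 SHC4 samples was sequenced after NEBNext Ultra RNA library preparation. Each deposited file holds, for 1 library, a signal value per gene, which is its read count over a size factor common to all genes of the library. The submitters' processing notes name HISAT2 2.0.5, featureCounts 1.5.0-p3 and DESeq2, and the genome build, annotation and strand setting are not given in the sources used here. Gene symbols, positions and exon lengths were taken from GENCODE release 29, which matched all 28181 identifiers. Promoter windows were taken from RefSeq (GRCh38.p14). Whole reads were recovered from the deposited signal by dividing by its step (100% of values whole within 0.01 reads), which gave 18144993 to 27721397 reads per library. No library pair agreed within sampling noise.

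The groups follow the labels. The normalized values, as log2(value + 1), were tested with limma 3.58.1 (empirical Bayes with trend, Benjamini-Hochberg adjustment) in R 4.3.3 over 23040 genes, leaving out 5141 whose mean was under 1. Calls required an absolute log2 fold change over 1 with an adjusted p under 0.05. The planned test for count files was edgeR; as the files hold normalized values, limma was used, and edgeR 4.0.16 and DESeq2 1.42.0 were run on the recovered reads as alternatives, beside TMM and library size scaling, other filters, another pseudocount, a replicate block and each library left out. The scripts were tested on simulated data. Named genes were the members, listed genes called in any fit, the 3 of each list highest per kb, those past a log2 fold change of 1 without overlap, and the 3 genes most like each member. A result for 1 listed gene is not reported here. The members and lists were chosen with earlier results of these data known.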

Additional observations from a re-analysis of the deposited data

How the results depend on the processing

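limma called 12 genes higher and 2 lower. These counts were 170 and 185 with DESeq2, 22 and 6 with library size scaling, 20 and 4 with TMM, 31 and 9 without the filter, 9 and 1 with edgeR, and 11 and 1 with a pseudocount of 0.1. With the replicate number as a block they were 25 and 14, with 1 partner called instead of 0. Deviations of same-numbered libraries correlated at 0.148, 0.013 and -0.007 over 23040 genes, and at 0.409, 0.146 and 0.149 over 12678 genes of mean 50 or more, where Cont library 2 correlated most with SHC4 library 3 (0.517). The labels tie no number to a shared batch, so whether the numbers pair the libraries is not settled. The block changed no member's call. Leaving out 1 library gave 1 to 367 genes called higher and 0 to 339 lower, both largest without UE7T-9 Cont library 1. Without UE7T-9 SHC4 library 1 they were 49 and 14. Listed partners called were 6 with DESeq2, 2 with library size scaling, 1 with TMM, 2 without the filter and 0 to 15 with 1 library left out, 15 again without UE7T-9 Cont library 1. The log2 fold change of TIMP3 was 1.28 to 1.47 with 1 library left out, and its call was lost in 4 of these fits. It was kept without Cont library 1 and without SHC4 library 1, and what sets these fits apart was not tested. Library size scaling moved the median log2 fold change of all genes to -0.10. The log2 fold changes of the 5 members kept their sign in every alternative. Leaving out 1 of 3 libraries can never move a log2 ratio difference by 1 SD, pooled over the 2 groups. All 105 recomputed log2 ratio differences, with 1 library left out or a pseudocount of 1, moved by less. For the left-out libraries this was fixed in advance and does not measure stability. Among them the difference turned in sign for MMP2 to TIMP2 without SHC4 library 2 (0.16 to -0.08) and for TIMP4 to TIMP1 without Cont library 3 (-0.11 to 0.11), both ratios whose groups overlapped. Depth limits TIMP4 most, with 34 to 58 reads per library.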
